A study of Mus musculus with 10 samples.

Results

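Untreated APP/PS1 microglia were compared with WT microglia across all genes. The comparison used 4 APP/PS1 and 3 WT libraries of the 10 libraries in the series, chosen by the group named in the sample labels. The other libraries came from APP/PS1 mice injected with N-AS. They entered the filter of genes, the scaling and the estimate of the spread between libraries. In fits with a covariate or replicate block they also entered its coefficients. All mice were 9 months old, and each library pooled the microglia of 2 mice, and p-values therefore measure the spread between such pools. APP/PS1 mice carry the Swedish form of human APP with a further mutant human transgene and develop amyloid plaques in the cortex. The promoters that drive the transgenes are not given in the sources used here. In the study's scheme, APP/PS1 mice were injected subcutaneously with vehicle or N-AS, and the labels give the APP/PS1 mice compared here no agent. Cells were released from the cortex with papain and enriched on a density gradient, without sorting. Reads were counted per gene by the authors, and levels are given as counts per 1000000 reads (CPM) after TMM scaling of the libraries.

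Microglia are the resident macrophages of the brain. They sense debris, lipids and amyloid through surface receptors such as Trem2, which signals through the adaptor Tyrobp, and they degrade what they take up in lysosomes. Around amyloid plaques, microglia are known to lower part of their homeostatic genes and to raise a set of lysosomal, lipid and chemokine genes that is called the disease-associated program.

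Libraries held 8805804 to 19133654 counts in WT and 12474941 to 19432075 in APP/PS1. The libraries were not pure microglia. The summed level of 12 neuronal marker genes was 3319 to 6858 CPM in WT and 3409 to 4215 CPM in APP/PS1, and it was above that of the 14 microglial markers in every library. The 14 microglial markers summed to 859, 1009 and 1242 CPM in WT and to 2504, 2559, 3145 and 2727 CPM in APP/PS1, so that the groups did not overlap. In bulk RNA, more microglia per library and more of these transcripts per microglial cell cannot be told apart. WT replicate 3 stood apart from the other WT libraries, with the highest neuronal sum (6858 CPM against 3319 and 3385 CPM), an oligodendrocyte sum of 2472 CPM against 7025 and 7156 CPM, and a choroid plexus sum of 32.8 CPM against 438 and 439 CPM. In APP/PS1 the choroid plexus sum was 751 to 1248 CPM, above every WT library.

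Transcripts of the sex chromosomes also separated the groups. Xist, the RNA that coats the inactive X chromosome of female cells, was at 4.40, 2.29 and 1.59 CPM in WT and at 453, 482, 579 and 533 CPM in APP/PS1. The 4 Y-linked genes (Ddx3y, Eif2s3y, Kdm5d and Uty) summed to 177, 197 and 178 CPM in WT, to 42.7 and 57.0 CPM in APP/PS1 replicates 1 and 2, and to 0.888 and 0.619 CPM in APP/PS1 replicates 3 and 4. The study's methods describe only male mice. Every APP/PS1 library carried Xist and no WT library did beyond a few CPM, so sex-linked transcripts and genotype cannot be told apart in these libraries. With the summed Y-linked level as a covariate, edgeR called 2 genes, Cst7 and Ccl6. Between WT and APP/PS1 this covariate nearly coincided with the groups, and 645 of the 649 genes called without it kept their sign. The fit used all 10 libraries, and the covariate was at 31.0, 45.7 and 176 CPM in the libraries of N-AS-injected mice. Its coefficient therefore also drew on those libraries. The median log2 fold change with the covariate was 1.31 for the disease-associated genes and 0.89 for the microglial markers. The sums of all marker lists are plotted by library.

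**Figure D1:**
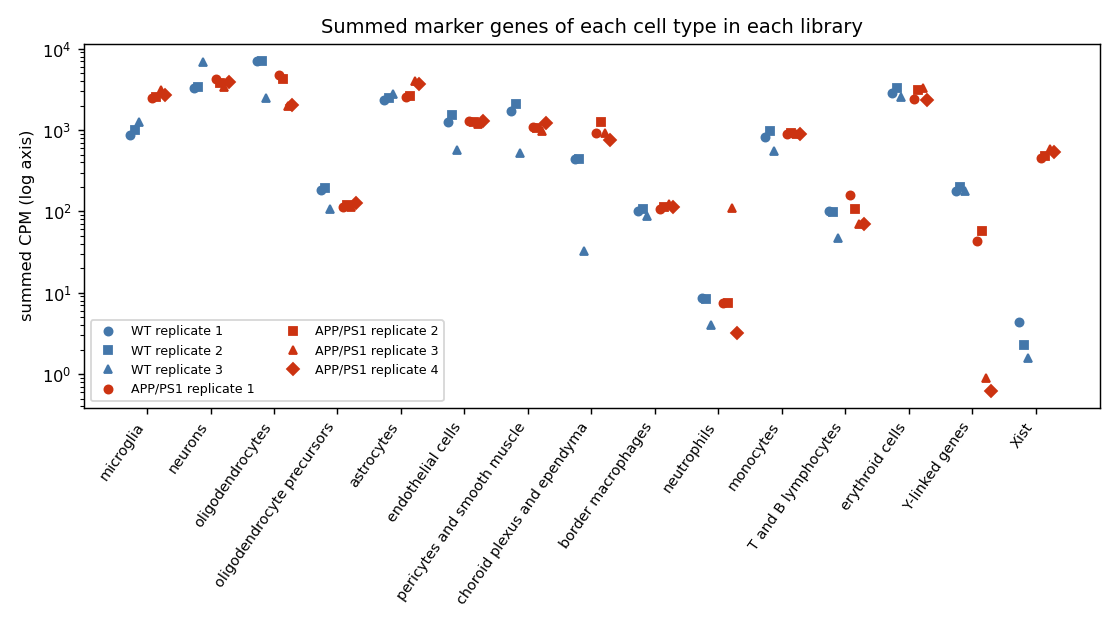
Summed level of the marker genes of 13 cell types, of 4 Y-linked genes and of Xist in each library (CPM, log axis). Blue symbols are the 3 WT libraries and red symbols the 4 APP/PS1 libraries, and each symbol shape is a replicate number. For microglial markers and Xist, all red symbols lay above all blue symbols, and WT replicate 3 (blue triangles) was low for oligodendrocytes, pericytes and choroid plexus.

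Of 18727 genes tested, 649 (3.47%) reached a Benjamini-Hochberg adjusted p below 0.05 with the quasi-likelihood test of edgeR, and such genes are described as called. Of these, 500 (2.67%) were higher and 149 (0.796%) lower in APP/PS1 than in WT. The median log2 fold change was 1.185 among the genes called higher and −0.90 among those called lower, beside a median of −0.07 over all genes. A log2 fold change of at least 1 was reached by 310 of the higher and 59 of the lower genes, and one of at least 2 by 89 and 12. In 648 of the 649 called genes the libraries of the groups did not overlap, which held for 14.9% of all genes tested (8.15% higher and 6.73% lower in APP/PS1). The exception was Il33, which codes for a nuclear cytokine and was at 80.2, 82.5 and 31.8 CPM in WT and at 27.4, 36.6, 21.0 and 19.7 CPM in APP/PS1. Few genes of low abundance could be called: the fifth of genes with the lowest mean level held 13 higher and 12 lower calls, and the fifth with the highest held 126 and 34. The 100 most abundant genes of a library took 22.7% ± 3.36 (SD, n = 3) of its counts in WT microglia and 22.8% ± 3.70 (SD, n = 4) in APP/PS1 microglia (p = 0.971, exact permutation test, two-sided).

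**Figure D2:**
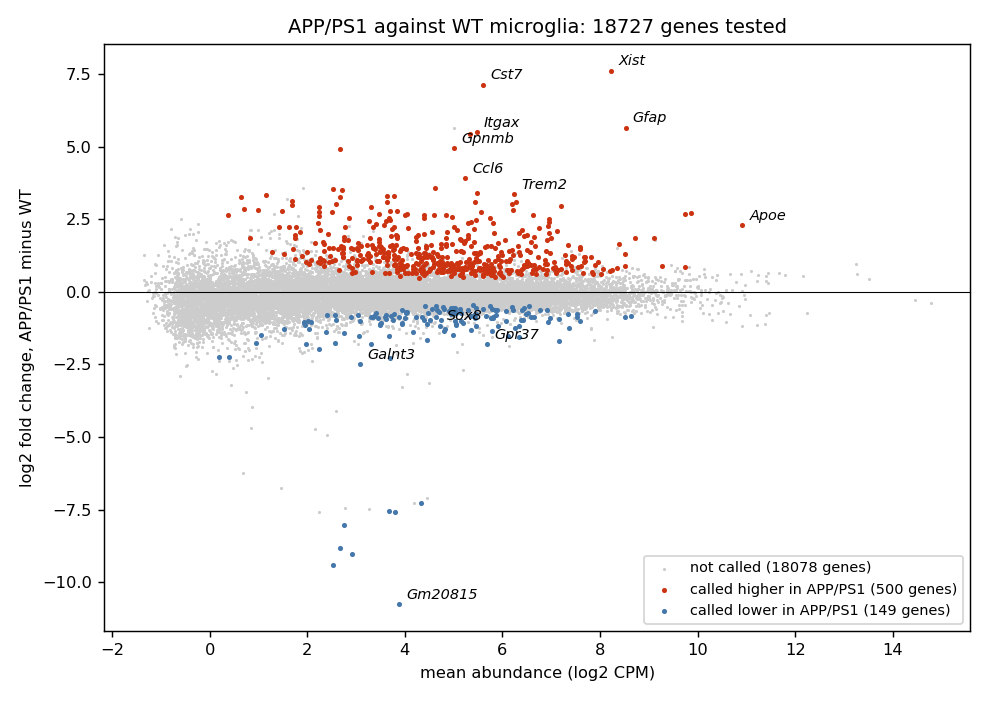
Log2 fold change of each gene (APP/PS1 minus WT) against its mean abundance over the libraries (log2 CPM). Each point is a gene; red marks the 500 genes called higher, blue the 149 called lower and grey the others. The called genes lay mostly above zero, and the lowest labelled point is Gm20815, a Y chromosome gene with a single read over the 4 APP/PS1 libraries together.

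Because microglial markers differed between the groups, the libraries were also scaled to the summed counts of the 14 markers in place of TMM. This lowered the log2 fold changes by a median of 1.42, and 88 genes (0.470%) were then called higher and 16628 (88.8%) lower. A gene that rose under TMM by less than this shift therefore changed its sign, and the value under marker scaling is given below where it bears on a gene group. Leaving out WT replicate 3 gave 549 higher and 374 lower genes.

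The lowest adjusted p belonged to Cst7, which codes for cystatin F, an inhibitor of lysosomal cysteine proteases. Cst7 was at 1.07, 0.495 and 0.627 CPM in the WT libraries and at 72.7, 81.1, 94.6 and 133.5 CPM in the APP/PS1 libraries. It was near absent from WT and present in every APP/PS1 library (log2 fold change 7.13, with a standard error, SE, of 0.41, edgeR adjusted p = 5.93e-05). The chemokine Ccl6 was at 2.97, 4.40 and 6.12 CPM in WT and at 61.5, 63.7, 79.7 and 73.6 CPM in APP/PS1 (log2 fold change 3.91). Plek, the pleckstrin of haematopoietic cells, was at 38.6, 37.8 and 34.5 CPM in WT and at 163, 181, 172 and 165 CPM in APP/PS1 (log2 fold change 2.20), and the libraries within a group were close to each other. Slc15a3, a lysosomal peptide and histidine transporter, was at 3.03 to 4.44 CPM in WT and 17.7 to 20.9 CPM in APP/PS1 (log2 fold change 2.44). The other genes among the 12 with the lowest adjusted p were Gusb, Tyrobp, C3ar1, Trem2, Fcer1g, Ctsl, Ctsz and Cd68. These are described with their groups.

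The disease-associated microglia genes had the highest median of the gene lists. Of 40 members tested, 33 were called higher and 0 lower, with a median log2 fold change of 2.26, beside 2.67% of all genes called higher and a median of −0.07. These lists were written with results of these libraries known, so the counts are a description. The calls in each list below likewise stand beside 2.67% of all genes called higher and 0.796% called lower with TMM. Itgax, the integrin CD11c, was at 4.28, 1.24 and 1.01 CPM in WT and at 67.3, 61.1, 83.8 and 134 CPM in APP/PS1 (log2 fold change 5.50, SE 0.53, edgeR adjusted p = 0.000545). Gpnmb, a transmembrane glycoprotein of lysosome-rich macrophages, was at 6.18, 0.619 and 1.11 CPM in WT and at 37.9, 42.6, 50.5 and 143 CPM in APP/PS1 (log2 fold change 4.94), with 1 APP/PS1 library far above the others. Apoe, the main lipid carrier of the brain, was at 613, 761 and 589.8 CPM in WT and at 2174, 2354, 3306 and 5001 CPM in APP/PS1 (log2 fold change 2.29). Clec7a, the receptor dectin-1, had a log2 fold change of 2.57. Lpl, the lipoprotein lipase, overlapped between the groups, at 2025, 2329.7 and 506 CPM in WT and at 4324, 3539.7, 1308 and 1457 CPM in APP/PS1 (adjusted p = 0.594 from edgeR). Lpl was lower in WT replicate 3 and in APP/PS1 replicates 3 and 4 than in the other libraries of each group. Scaled to the microglial markers, 21 of the 40 members were called higher and 4 lower, with a median of 0.82, where 0.470% of all genes were higher.

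Trem2 and its adaptor were among the genes with the lowest adjusted p. Of 14 genes of Trem2 signalling tested, 11 were called higher and 0 lower, with a median log2 fold change of 1.297 (−0.096 under marker scaling). Trem2 was at 12.1, 10.3 and 16.6 CPM in WT and at 105, 126, 134 and 169.8 CPM in APP/PS1 (log2 fold change 3.36, SE 0.29, edgeR adjusted p = 0.000379). Its adaptor Tyrobp was at 6.18, 5.76 and 9.79 CPM in WT and at 66.3, 64.0, 90.8 and 87.6 CPM in APP/PS1 (log2 fold change 3.40, SE 0.28). Both were higher in all 4 APP/PS1 libraries than in any WT library. Downstream, Lat2, an adaptor that recruits phospholipase and kinases, rose by 2.47 on the log2 scale, the guanine nucleotide exchange factor Vav1 by 1.34 and the phosphatase Inpp5d by 1.37. The kinase Syk, which binds phosphorylated Tyrobp, was at 12.1 to 21.0 CPM in WT and 25.6 to 38.6 CPM in APP/PS1 and was not called (log2 fold change 0.83, adjusted p = 0.0786 from edgeR). DESeq2 called Syk higher. Under marker scaling Trem2 and Tyrobp stayed above zero, at 1.97 and 2.02, while Vav1 and Inpp5d were at −0.060 and −0.035.

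Among the cathepsins, the proteases of the lysosome, 9 of 13 were called higher and 0 lower (median 1.37, −0.08 under marker scaling). Ctsd, an aspartic protease, was at 185, 241 and 279 CPM in WT and at 1317, 1381, 1648 and 1858 CPM in APP/PS1 (log2 fold change 2.72, SE 0.26, edgeR adjusted p = 0.000545). Ctss, a cysteine protease that trims the invariant chain of MHC class II, was at 166, 198 and 299 CPM in WT and at 1008, 1173, 1701 and 1761 CPM in APP/PS1 (log2 fold change 2.67). The other cysteine proteases Ctsz, Ctsl and Ctsb had log2 fold changes of 2.63, 2.09 and 1.85. In each of these genes the lowest APP/PS1 library was above the highest WT library.

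Of 32 lysosomal hydrolases, 12 were called higher and 0 lower, with a median of 0.52 (−0.90 under marker scaling). Gusb, the beta-glucuronidase, was at 11.9, 12.7 and 12.4 CPM in WT and at 50.3, 56.3, 80.4 and 73.1 CPM in APP/PS1 (log2 fold change 2.40, SE 0.19). The hexosaminidase subunit Hexa had a log2 fold change of 2.02 and the mannosidase Man2b1 one of 1.72. Among 22 lysosomal membrane and cofactor proteins, 9 were called higher and 0 lower (median 0.43, −1.004 under marker scaling). Cd68, a heavily glycosylated membrane protein of macrophage lysosomes, was at 8.56, 8.05 and 8.39 CPM in WT and at 58.0, 71.4, 65.6 and 86.6 CPM in APP/PS1 (log2 fold change 3.08). Slc11a1, which carries iron and manganese out of phagosomes, had a log2 fold change of 1.99, progranulin (Grn) 1.85 and the cholesterol carrier Npc2 1.77. Of 20 subunits of the V-ATPase, the proton pump of the lysosome, 1 was called higher (Atp6v0e) and 0 lower, beside 2.67% and 0.796% of all genes. The median of the subunits was −0.03 (−1.36 under marker scaling). Without WT replicate 3, 5 of the 20 were called higher and 1 lower, and the median was 0.54.

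**Figure D3:**
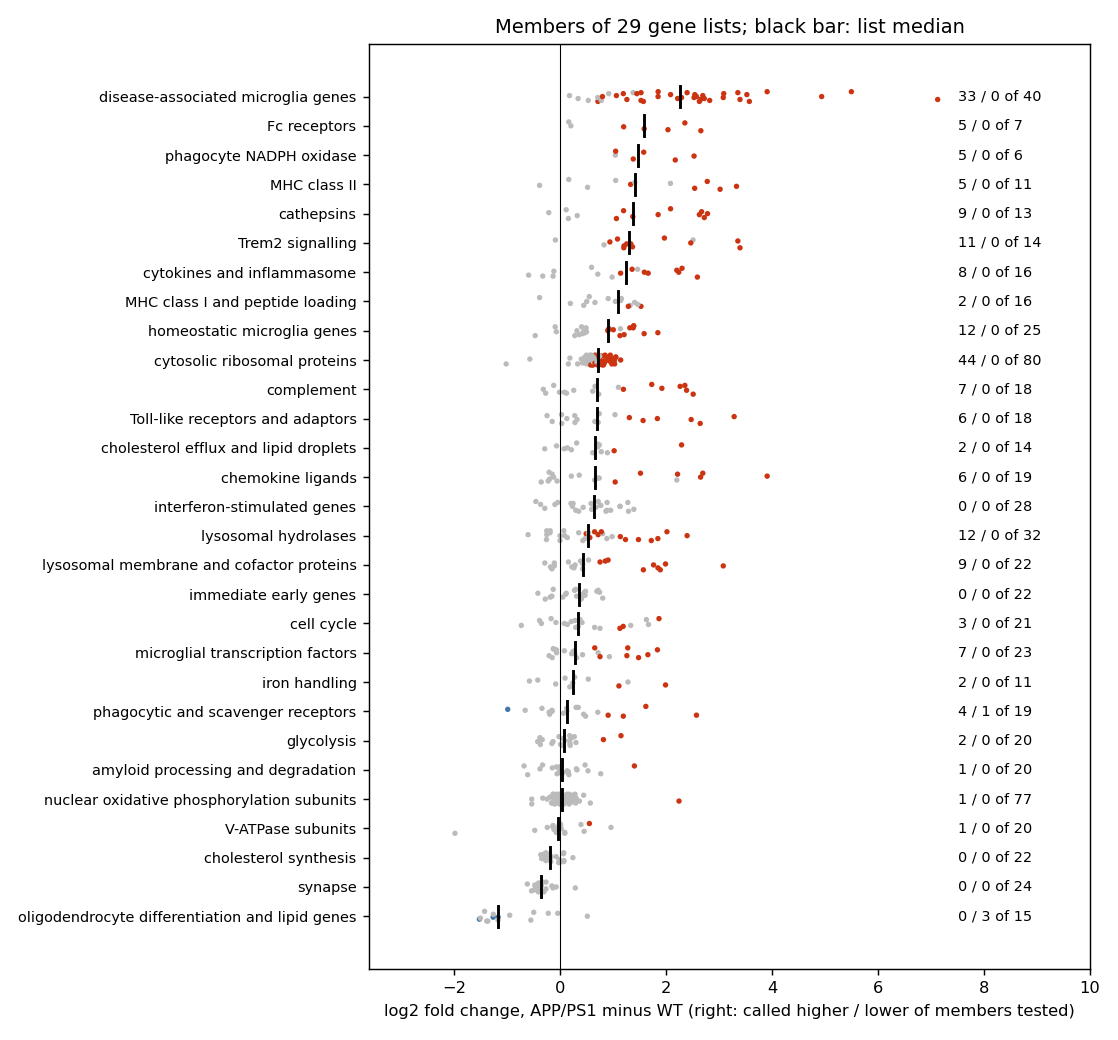
Log2 fold change (APP/PS1 minus WT, TMM scaling) of the members of 29 gene lists. Each point is a gene (red called higher, blue called lower, grey not called), the black bar is the median of the list, and the counts at the right give called higher and called lower of the members tested. The disease-associated genes had the highest median, 2.26, and the oligodendrocyte genes the lowest, −1.17.

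Of 11 MHC class II genes, 5 were called higher and 0 lower (median 1.41, −0.08 under marker scaling). Cd74, the invariant chain, was at 18.7, 20.6 and 13.4 CPM in WT and at 72.0, 87.8, 124 and 283 CPM in APP/PS1 (log2 fold change 3.02, SE 0.49, edgeR adjusted p = 0.00768). H2-Aa was at 2.65 to 5.23 CPM in WT and at 10.8, 16.3, 26.8 and 47.1 CPM in APP/PS1 (log2 fold change 2.78). H2-Ab1 had a log2 fold change of 2.54, and H2-Eb1, the beta chain of a further heterodimer, one of 2.08 with an adjusted p of 0.0636 from edgeR. H2-Eb1 was called higher by DESeq2, and by edgeR without APP/PS1 replicate 1. The 4 APP/PS1 libraries spread widely in these genes, with replicate 4 the highest in each. The call of H2-Ab1 was lost without WT replicate 1 or 2 and that of H2-Aa without WT replicate 2, where 2 of the 11 genes were called. Of 16 genes of MHC class I and peptide loading, 2 were called higher (median 1.09, −0.40 under marker scaling). The libraries did not overlap in 12, all higher in APP/PS1, beside 8.15% of all genes tested. B2m, the light chain, was at 118, 139 and 47.7 CPM in WT and at 247, 275, 271 and 380 CPM in APP/PS1 (log2 fold change 1.53, adjusted p = 0.0468 from edgeR), and its call was lost without either WT replicate 1 or 2 or any single APP/PS1 library. The heavy chain H2-D1 had a log2 fold change of 1.41 and was not called (adjusted p = 0.0598). DESeq2 and limma called H2-D1 higher. So did edgeR with total counts, with the library number covariate, and with at least 10 counts required in every library. B2m and H2-D1 were lowest in WT replicate 3.

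Of 18 complement genes, 7 were called higher and 0 lower (median 0.70, −0.81 under marker scaling). The 3 chains of C1q, which starts the classical pathway, were called. C1qa was at 25.3, 31.6 and 49.997 CPM in WT and at 150.2, 162, 218 and 287 CPM in APP/PS1 (log2 fold change 2.51). C1qb had a log2 fold change of 2.39 and C1qc one of 2.27. C3ar1, the receptor of the C3a fragment, was at 20.1, 18.0 and 17.9 CPM in WT and at 56.9, 62.3, 64.8 and 63.4 CPM in APP/PS1 (log2 fold change 1.73, SE 0.14, edgeR adjusted p = 0.000379), with a narrow spread in both groups. Itgb2, the beta chain shared by the complement receptors CR3 and CR4, had a log2 fold change of 2.36. C3, the central component, was at 5.70 to 7.84 CPM in WT and at 9.67, 14.96, 34.3 and 39.9 CPM in APP/PS1 (log2 fold change 1.92, adjusted p = 0.0396 from edgeR), and this call was lost without any single WT library and without APP/PS1 replicate 3 or 4.

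Of 7 Fc receptor genes, 5 were called higher and 0 lower (median 1.59, 0.19 under marker scaling). Fcer1g, the signalling chain that several Fc receptors share, was at 5.94, 7.74 and 9.11 CPM in WT and at 42.5, 45.0, 52.7 and 54.1 CPM in APP/PS1 (log2 fold change 2.66). The activating receptor Fcgr3 had a log2 fold change of 2.04 and the inhibitory receptor Fcgr2b one of 2.36. Among 18 Toll-like receptors and adaptors, 6 were called higher and 0 lower (median 0.69, −0.75 under marker scaling). Tlr2, which binds lipopeptides, was at 1.83 to 3.45 CPM in WT and 21.0 to 29.6 CPM in APP/PS1 (log2 fold change 3.29), and its coreceptor Cd14 had a log2 fold change of 2.65. Of the 6 subunits of the phagocyte NADPH oxidase, which makes superoxide, 5 were called higher (median 1.48, 0.07 under marker scaling). Its membrane subunits Cybb and Cyba had log2 fold changes of 2.53 and 2.17.

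Among secreted signals, 6 of 19 chemokine ligands were called higher and 0 lower (median 0.65, −0.83 under marker scaling). The macrophage inflammatory proteins Ccl3 and Ccl4 had log2 fold changes of 2.65 and 2.69. Ccl4 was at 4.16, 4.89 and 3.47 CPM in WT and at 30.3, 30.9, 24.7 and 22.1 CPM in APP/PS1. Of 16 cytokine and inflammasome genes, 8 were called higher and 0 lower (median 1.25, −0.14 under marker scaling). Il1b was at 4.52, 3.03 and 2.94 CPM in WT and at 18.5, 18.2, 23.7 and 7.52 CPM in APP/PS1 (log2 fold change 2.30, adjusted p = 0.0135 from edgeR). Tnf was at 4.16, 3.10 and 2.22 CPM in WT and at 21.7, 20.1, 11.7 and 5.14 CPM in APP/PS1 (log2 fold change 2.24, adjusted p = 0.0308 from edgeR). Both cytokines were lowest in APP/PS1 replicate 4, where Cd74 and Apoe were highest. The call of Il1b was lost without WT replicate 2, and that of Tnf without any single library other than APP/PS1 replicate 4. The inflammasome sensor Nlrp3 had a log2 fold change of 2.20, its adaptor Pycard 1.14 and the anti-inflammatory cytokine Tgfb1 1.36.

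Interferon-stimulated genes were not called. None of 28 members passed edgeR's test or limma's, 5 passed DESeq2's, and 13 had an unadjusted edgeR p under 0.05. With the library number covariate edgeR called 1 member, and without APP/PS1 replicate 1 it called 1, which was Ddx60. The libraries did not overlap in 7 members, all higher in APP/PS1, beside 8.15% of all genes tested. The median of the 28 members was 0.64 (−0.85 under marker scaling). The lowest adjusted p among them was that of Ddx60, an RNA helicase, at 7.38 to 10.9 CPM in WT and 13.6 to 25.0 CPM in APP/PS1 (log2 fold change 0.96, adjusted p = 0.0508 from edgeR), and it was also called with RLE factors and with both other count filters. The mean of the list differed by 0.11 on the log2 CPM scale among library numbers 1 to 6 and by 1.35 among numbers 7 to 10, where the only WT library was replicate 3. Cxcl10, a chemokine that interferon induces and that was placed with the chemokines, was at 0.530 to 1.78 CPM in WT and at 5.35, 5.45, 3.14 and 5.09 CPM in APP/PS1 (log2 fold change 2.22, adjusted p = 0.0390 from edgeR). Its call was lost without WT replicate 2 or 3 or any single APP/PS1 library.

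Of 19 receptors and bridging proteins for the uptake of amyloid, lipids and apoptotic cells, 4 were called higher and 1 lower (median 0.13, −1.29 under marker scaling). Itgb5, an integrin that binds the bridging protein Mfge8, was at 64.5, 78.8 and 82.1 CPM in WT and at 192, 209, 263 and 260 CPM in APP/PS1 (log2 fold change 1.62). Axl, a receptor for Gas6 bound to apoptotic cells, had a log2 fold change of 1.19, and its call was lost without WT replicate 1 or APP/PS1 replicate 3 or 4. Megf10, an engulfment receptor that astrocytes also express, was at 30.5 to 42.8 CPM in WT and 14.6 to 20.9 CPM in APP/PS1 (log2 fold change −0.99, adjusted p = 0.0189 from edgeR). This call was lost without WT replicate 1 or 2 or APP/PS1 replicate 2 or 4.

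Of 25 homeostatic genes of microglia, 12 were called higher and 0 lower, beside 2.67% and 0.796% of all genes. The median log2 fold change of the 25 genes, 0.90, turned to −0.51 under marker scaling. Csf1r, the receptor of the growth factor on which microglia depend, was at 159, 182 and 243 CPM in WT and at 438, 467, 549.95 and 485 CPM in APP/PS1 (log2 fold change 1.32). Cx3cr1, the fractalkine receptor, was at 120, 132 and 147 CPM in WT and at 265, 246, 262 and 221 CPM in APP/PS1 (log2 fold change 0.90, SE 0.14, edgeR adjusted p = 0.00685). The groups did not overlap in either gene. P2ry12, a purinergic receptor of resting microglia, did overlap, at 61.8, 65.6 and 90.5 CPM in WT and at 84.3, 91.9, 119.8 and 78.5 CPM in APP/PS1 (log2 fold change 0.36, adjusted p = 0.377 from edgeR). Tmem119, a membrane protein used as a microglial marker, was at 20.6, 22.97 and 31.6 CPM in WT and at 35.9, 37.6, 40.0 and 28.8 CPM in APP/PS1 (log2 fold change 0.50, adjusted p = 0.181). Sall1, a transcription factor of microglial identity, had a log2 fold change of 0.43 (adjusted p = 0.122), and the groups did not overlap. Without WT replicate 3, edgeR called Tmem119 and Sall1 higher, and DESeq2 called Sall1 higher with all libraries. P2ry12 was called in neither setting. Scaled to the 14 markers, 1 of the 25 members was called higher and 16 lower, and P2ry12, Tmem119 and Sall1 were at −1.04, −0.88 and −0.98. At that scaling 88.8% of all genes were lower. Csf1r, Cx3cr1, P2ry12, Tmem119 and Sall1 are themselves among the 14 markers, so the scaling uses their own counts.

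**Figure D4:**
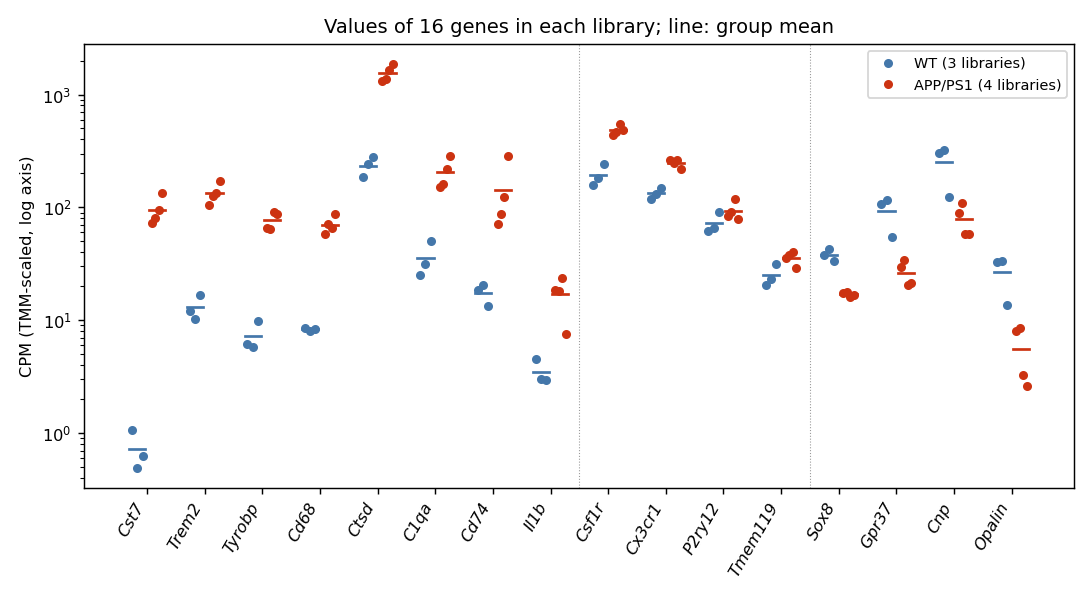
Level of 16 genes in each of the 3 WT (blue) and 4 APP/PS1 (red) libraries (CPM, log axis); points are libraries and lines are group means. From the left, the first 8 are disease-associated, lysosomal and immune genes, the next 4 are homeostatic microglial genes and the last 4 are genes called lower. P2ry12 and Tmem119 overlapped between the groups, and the others did not.

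Of 23 transcription factors of microglia, 7 were called higher and 0 lower (median 0.28, −1.11 under marker scaling). Spi1, which codes for the macrophage factor PU.1, was at 4.64, 4.33 and 6.65 CPM in WT and at 14.5, 12.5, 18.0 and 13.8 CPM in APP/PS1 (log2 fold change 1.48, SE 0.21, edgeR adjusted p = 0.00427). Cebpa, a partner of PU.1 in myeloid cells, had a log2 fold change of 1.84, Irf8, a factor of myeloid development, 1.66 and Hif1a, the oxygen-sensitive factor, 1.26. Runx1 had one of 0.66, and its call was lost without WT replicate 1 or 3 or APP/PS1 replicate 2, 3 or 4. The call of Irf8 was lost without WT replicate 1 or 2.

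The promoters of the called genes were searched for GAGGAAGT, the core recognised by PU.1, and for TCACGTGA, the core of the element that the lysosomal factors Tfeb and Mitf bind, on both strands. The windows, from RefSeq (GRCm38.p6), run from 250 bases before to 50 after each gene's start. A window was at hand for 75.6% of the genes tested and for 75.0% and 71.1% of those called higher and lower, which is under 80%, so the shares describe only the genes with a window and no comparison is drawn. The PU.1 core was found for 41 of 375 genes called higher (10.9%), for 1 of 106 called lower (0.943%) and for 538 of all 14150 (3.80%). The other core was found for 10 of 375 called higher (2.67%), for 1 of 106 called lower (0.943%) and for 253 of all 14150 (1.79%). The 100 bases before the start are shown because they let the letters be read beside the calls. Genes on a chromosome excluded from the display were not considered, so the set shown need not be complete. The stretches come from the remaining called genes that the naming rule of the methods had taken and that hold a core there. The display was limited to 4 stretches with the PU.1 core and 2 with the other, taken in order of adjusted p. Further named genes may therefore hold a core there. Each is written from 5′ to 3′ on the strand of the gene, with the core in capitals. The core begins 11, 20, 44 and 44 bases before the start in Vav1, Inpp5d, Pycard and Rpl13a, where the last 2 carry it on the opposite strand, and 99 and 57 bases before the start in Ctsd and Siglech. A match of letters does not show that a factor binds there.
Vav1 (chr17:57279000-57279099, plus strand): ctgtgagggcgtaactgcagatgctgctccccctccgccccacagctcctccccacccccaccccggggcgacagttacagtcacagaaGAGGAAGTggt
Inpp5d (chr1:87620212-87620311, plus strand): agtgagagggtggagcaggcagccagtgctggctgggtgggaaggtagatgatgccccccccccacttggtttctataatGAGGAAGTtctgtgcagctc
Pycard (chr7:127993868-127993967, minus strand): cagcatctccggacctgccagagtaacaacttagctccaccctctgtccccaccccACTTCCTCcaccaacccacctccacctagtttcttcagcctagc
Rpl13a (chr7:45128746-45128845, minus strand): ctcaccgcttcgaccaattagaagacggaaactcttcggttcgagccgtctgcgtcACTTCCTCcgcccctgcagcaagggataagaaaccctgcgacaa
Ctsd (chr7:142387828-142387927, minus strand): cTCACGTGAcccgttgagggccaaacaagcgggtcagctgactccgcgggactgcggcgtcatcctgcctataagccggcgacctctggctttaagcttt
Siglech (chr7:55768084-55768183, plus strand): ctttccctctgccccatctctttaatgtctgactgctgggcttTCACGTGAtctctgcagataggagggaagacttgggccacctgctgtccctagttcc

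All 6 genes were called higher. Rpl13a, a protein of the large ribosomal subunit, had a log2 fold change of 0.81, and its call was lost without any single library other than APP/PS1 replicate 1. Siglech, a sialic acid receptor of microglia, had one of 1.39, and its call was lost without WT replicate 1 or APP/PS1 replicate 3.

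Of 80 cytosolic ribosomal proteins tested, 44 were called higher and 0 lower, beside 2.67% of all genes called higher. In 74 the groups did not overlap, all higher in APP/PS1, beside 8.15% of all genes. The median log2 fold change of the 80 was 0.71 and turned negative under marker scaling. Under marker scaling the median was −0.72 and 74 were called lower, beside 88.8% of all genes at that scaling. Rpl10a was at 32.4, 35.4 and 32.4 CPM in WT and at 57.0, 59.8, 65.9 and 71.9 CPM in APP/PS1 (log2 fold change 0.93, SE 0.13, edgeR adjusted p = 0.00427). The stalk protein Rplp1 had a log2 fold change of 1.03. The number of called members fell to 6 without WT replicate 1, with the median between 0.62 and 0.84 when any single library was left out. Many ribosomal protein genes have processed pseudogenes, with which the authors' counting could have shared reads. The nuclear subunits of oxidative phosphorylation had 1 call among 77 (median 0.03, −1.33 under marker scaling), beside 2.67% of all genes called higher, and without WT replicate 3 there were 6 calls and a median of 0.38. The call was Cox6a2, a muscle isoform of a cytochrome oxidase subunit, at 0.771 to 1.31 CPM in WT and 2.76 to 7.24 CPM in APP/PS1, and the call was lost without WT replicate 1 or 2 or APP/PS1 replicate 3 or 4.

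The counts for metabolism and the cell cycle stand beside 2.67% of all genes called higher. Of 20 genes of glycolysis, 2 were called higher, among them the hexokinase Hk2 (log2 fold change 0.82), whose call was lost without WT replicate 2 or APP/PS1 replicate 2, 3 or 4. The median of the glycolysis genes was 0.075, and without WT replicate 3 it was 0.63 with 6 called, while 0 were called without WT replicate 2. Of 22 genes of cholesterol synthesis, 0 were called by edgeR, limma or DESeq2 and 0 had an unadjusted edgeR p under 0.05 (median −0.18). Of 14 genes of cholesterol efflux and lipid droplets, 2 were called higher, Apoe and the acyltransferase Lpcat2 (log2 fold change 1.02), and 5 were called without WT replicate 3. Of 11 genes of iron handling, 2 were called higher, Slc11a1 and the ferritin light chain Ftl1 (log2 fold change 1.11), whose call was lost without WT replicate 1 or APP/PS1 replicate 3 or 4. Of 21 cell cycle genes, 3 were called higher, among them the cyclin Ccnd1 (1.19) and the topoisomerase Top2a (1.87). Top2a was at 3.53 to 5.11 CPM in WT and at 12.6, 10.2, 26.0 and 10.5 CPM in APP/PS1, and its call was lost without WT replicate 2. Mki67, a protein of dividing cells, was at 8.61 to 13.9 CPM in WT and at 23.2, 21.5, 67.6 and 17.4 CPM in APP/PS1 and was not called (adjusted p = 0.0889 from edgeR). DESeq2 called Mki67 higher. None of 22 immediate early genes was called by edgeR, limma or DESeq2, and 5 had an unadjusted edgeR p under 0.05. Of these genes, 3 were called higher by edgeR with the library number covariate. None of 16 heat shock genes was called by edgeR or limma, 2 were called by DESeq2, 1 by edgeR with the library number covariate, and 3 had an unadjusted edgeR p under 0.05. Each list of this paragraph had a negative median under marker scaling, between −1.57 and −0.78. Of 20 genes of amyloid processing and degradation, 1 was called, the protease Plau (log2 fold change 1.40), and its call was lost without WT replicate 2 or APP/PS1 replicate 2, 3 or 4. Endogenous App was at 1406, 1707 and 1753 CPM in WT and at 1394, 1235, 1068 and 1300.0 CPM in APP/PS1 (log2 fold change −0.38, adjusted p = 0.303 from edgeR). Counts were made on mouse genes, so this value does not measure the human transgene with certainty.

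The lower genes with the lowest adjusted p included genes of oligodendrocytes, the cells that make myelin. Sox8, a transcription factor of the oligodendrocyte lineage, was at 38.0, 43.2 and 33.2 CPM in WT and at 17.4, 17.9, 15.9 and 16.7 CPM in APP/PS1 (log2 fold change −1.17, SE 0.12, edgeR adjusted p = 0.000718). Gpr37, a receptor of maturing oligodendrocytes, was at 107, 115 and 54.7 CPM in WT and at 29.8, 34.0, 20.6 and 21.3 CPM in APP/PS1 (log2 fold change −1.81). Tubb4a, a tubulin of myelinating cells, was at 277, 284 and 300.5 CPM in WT and at 157, 155, 112 and 144 CPM in APP/PS1 (log2 fold change −1.02). The groups did not overlap in these 3 genes. Galnt3, which starts mucin-type glycosylation, was at 18.5, 17.4 and 26.0 CPM in WT and at 1.73, 3.14, 5.06 and 4.62 CPM in APP/PS1 (log2 fold change −2.49). Trim59, a ubiquitin ligase, had a log2 fold change of −1.40. The potassium channel Kcna6, the sodium pump interactor Nkain2, the axonal transport adaptor Fez1, the protocadherin Pcdh9 and the leucine-rich repeat protein Lrrn1 had log2 fold changes between −1.0045 and −0.86.

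Among the markers of mature oligodendrocytes, 0 of 10 were called higher and 3 lower (median −1.34), and among genes of oligodendrocyte differentiation and lipids 0 of 15 were called higher and 3 lower (median −1.17). Both counts stand beside 0.796% of all genes called lower. Opalin, a membrane protein of myelin, was at 32.7, 33.6 and 13.6 CPM in WT and at 8.03, 8.51, 3.28 and 2.62 CPM in APP/PS1 (log2 fold change −2.27, SE 0.43, edgeR adjusted p = 0.0182). Cnp, an enzyme of myelin, was at 305, 325 and 124 CPM in WT and at 88.8, 109, 58.1 and 58.0 CPM in APP/PS1 (log2 fold change −1.68). In both genes WT replicate 3 and APP/PS1 replicates 3 and 4 were the low libraries of their groups, and APP/PS1 was lower within library numbers 1 to 6 and within 7 to 10. Ermn, a cytoskeletal protein of oligodendrocytes, had a log2 fold change of −1.56, the lineage factor Sox10 one of −1.65, Car2 one of −1.26 and Fa2h, which hydroxylates the fatty acids of myelin lipids, one of −1.52. Sox10 was the only call among 8 markers of oligodendrocyte precursors, beside 0.796% of all genes called lower. These 8 markers had a median of −0.10, with 2 above zero and 6 below. The calls of Opalin, Cnp, Ermn and Sox10 were lost without WT replicate 1 or 2 or APP/PS1 replicate 3, those of Cnp, Ermn and Sox10 also without APP/PS1 replicate 4, and that of Fa2h without WT replicate 1 or 2 or APP/PS1 replicate 1, 3 or 4. The summed level of the 10 markers was 2472 to 7156 CPM in WT and 1980 to 4777 CPM in APP/PS1, and its part in these results was not tested. The calls among the 10 markers ranged from 0 without WT replicate 1 to 8 without WT replicate 3, and those among the 15 genes of differentiation and lipids from 2 to 10 without the same libraries.

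Astrocyte markers moved in 2 genes. Gfap, the intermediate filament of reactive astrocytes, was at 15.6, 17.6 and 10.9 CPM in WT and at 499, 617, 899.8 and 923 CPM in APP/PS1 (log2 fold change 5.65, SE 0.55, edgeR adjusted p = 0.000545). The calcium-binding protein S100b was at 13.7 to 20.6 CPM in WT and 30.3 to 49.4 CPM in APP/PS1 (log2 fold change 1.21), and its call was lost without WT replicate 1 or 3 or APP/PS1 replicate 3 or 4. The other 8 astrocyte markers were not called, and the list had a median of −0.15. The summed astrocyte markers were 2325 to 2755.5 CPM in WT and 2536 to 4063 CPM in APP/PS1, a sum to which Gfap contributed. No member of the lists for neurons, endothelial cells, pericytes, choroid plexus, border macrophages, neutrophils, monocytes, lymphocytes or erythroid cells was called by edgeR with all libraries, and 5 members had an unadjusted edgeR p under 0.05. Without WT replicate 3, edgeR called 2 endothelial and 3 pericyte markers lower. With the library number covariate it called 1 choroid plexus and 1 monocyte marker higher, and DESeq2 called 1 choroid plexus marker. The synaptic vesicle fusion gene Snap25 was at 541, 664 and 2544 CPM in WT and at 924, 881, 952 and 1134 CPM in APP/PS1, so that WT replicate 3 was above and the other WT libraries below all APP/PS1 libraries. Its log2 fold change of −0.36 turned to 0.70 without that library. Ttr, the transthyretin of the choroid plexus, was at 373, 373 and 1.74 CPM in WT and at 829, 1148, 829.5 and 656 CPM in APP/PS1 and was not called (adjusted p = 0.618).

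The called genes were spread over the autosomes, of which 1.34% to 3.60% of the tested genes were called higher (2.67% over all autosomes), with 94.9% of the tested symbols matched to the RefSeq gene table. Of 647 genes on the X chromosome, 21 were called higher and 0 lower. Among them were Xist (log2 fold change 7.61), its antisense partner Tsix (5.45), and Ddx3x (0.89) and Eif2s3x (0.76), which escape X inactivation. The calls of Xist and Tsix were lost without WT replicate 1 or 2, that of Ddx3x without WT replicate 1 or 2 or APP/PS1 replicate 3, and that of Eif2s3x without WT replicate 1 or 2 or APP/PS1 replicate 2, 3 or 4. The libraries are stranded, but whether the counting used the strand is not given in the sources used here, so reads of Xist and Tsix cannot be told apart. Of 27 Y chromosome genes tested, 7 were called lower, and these were multicopy genes whose reads can be shared between near-identical copies. Among them, Gm20815 had 988, 27 and 259 reads in WT and 0, 1, 0 and 0 reads in APP/PS1. Its level within WT spread from 1.67 to 117 CPM, and its call was lost without WT replicate 1 or any single APP/PS1 library. Ddx3y was at 69.0 to 73.2 CPM in WT and at 17.5, 26.8, 0.478 and 0.476 CPM in APP/PS1, with an adjusted p of 0.213 from edgeR.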

How the data were processed

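RNA seq libraries of cortical microglia were made by the authors with ribosomal RNA depletion and a stranded kit, sequenced as paired ends and aligned with TopHat to mm10 per the labels, which name no version. The values used here are raw counts per gene as deposited by the authors. Their quantile-normalized FPKM values were not used. The 24481 lines were summed per symbol to 24421 symbols, since 103 lines shared 43 symbols.

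Genes passing the filterByExpr function of edgeR 4.0.16 (R 4.3.3) were scaled by TMM and fitted with the quasi-likelihood model over the 3 groups and 10 libraries. The contrast was APP/PS1 minus WT, with Benjamini-Hochberg adjustment over the 18727 genes and a threshold of 0.05. The common coefficient of variation between libraries was 27.4%. CPM are scaled counts per 1000000 reads. A single share was compared with an exact permutation test over libraries, whose smallest p is 0.0286. No molecular identifiers were used, so reads are not independent molecules. Library pairs within a group differed beyond counting noise. The scripts were tested on simulated data.

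The members and gene lists were chosen with earlier results of these data known. Genes were named by rule: the 12 lowest adjusted p in each direction, the 6 largest changes in each direction at a mean of at least 10 CPM, up to 5 called and the 3 most abundant members of each list, the cell type markers, the genes the study names, and checks of the labels (App, Xist and Y-linked genes among them). From these the text took those that show a group, and some items are not reported here. Syk, H2-Eb1, C3, Cxcl10, Il1b, Tnf, Ddx60, Runx1, Mki67, Tgfbr1 and Il33, outside the rule, were chosen after their values were seen. Library sets are library numbers 1 to 6 and 7 to 10 in the sample names, and the library number covariate is this set. Same-numbered replicates of the 2 groups did not deviate together (mean correlation −0.02, range −0.49 to 0.44), so the numbers were not taken as pairs. DESeq2 1.42.0 and voom in limma 3.58.1 were tried as alternatives, as were other scalings and filters, covariates and leaving out each library. Promoter windows came from RefSeq (GRCm38.p6).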

Additional observations from a re-analysis of the deposited data

Results flagged for a closer look

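Of 166 sets of 4 APP/PS1 values examined, 9 had 1 library whose gap to the nearest other library, divided by the range of the 4, was above Dixon's critical value for 4 samples. Chance flags about 1 in 20 such sets. APP/PS1 replicate 4 was the highest library for Gpnmb (ratio 0.881), for Slc11a1 (0.859) and for the total count (0.906, with 19432075 reads). APP/PS1 replicate 3 was the highest library for the cell cycle genes Top2a (0.846) and Mki67 (0.884) and the lowest for Cxcl10 (0.844). The summed neutrophil markers were at 111 CPM in APP/PS1 replicate 3 and at 3.24 to 7.51 CPM in the other APP/PS1 libraries (0.960), and in WT they were at 4.05 to 8.68 CPM. The summed monocyte markers were flagged for APP/PS1 replicate 2 (0.841), where the 4 libraries lay between 892 and 916 CPM. For Gm20815 the ratio of 1 rests on the single read in APP/PS1 replicate 2.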

How the results depend on the processing

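Scaling to total counts, RLE factors or the upper quartile, limma, robust dispersions and both other count filters gave between 571 and 707 called genes, beside 649. DESeq2 called 1362 genes (870 higher and 492 lower), the fit to only the 7 libraries 410 (354 and 56), and the library number covariate 1055 (751 and 304). The fold threshold of 1 on the log2 scale left 369 (310 and 59). The replicate block, in a design whose numbers do not pair the samples, gave 326 (250 and 76). The Y-linked covariate left 2 (2 and 0), and scaling to the 14 microglial markers gave 16716 (88 and 16628). Leaving out single libraries gave 299 to 923 called genes, 261 to 549 higher and 36 to 374 lower. The lowest total came without APP/PS1 replicate 3 or 4, with 319 without WT replicate 1, 362 without WT replicate 2 and 430 without APP/PS1 replicate 2; the highest came without WT replicate 3. The called genes named in the text, without Il33 and Atp6v0e, which were not followed, numbered 103. Of these, 74 were called with every single library left out, 62 under marker scaling and 85 under the block. The difference in the share of each library in its 100 most abundant genes, 0.111 percentage points, ranged from −1.82 to 1.25 with single libraries left out and turned negative without WT replicate 3 or APP/PS1 replicate 1 or 2. The causes of these shifts were not tested, except that marker scaling lowers every gene by its construction.

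Under marker scaling the log2 fold change turned negative for Siglech (−0.018), Tgfb1 (−0.034), Inpp5d (−0.035), Vav1 (−0.060), Csf1r (−0.075), H2-D1 (−0.081), Plau (−0.084), Hif1a (−0.16), Ccnd1 (−0.23), S100b (−0.23), Pycard (−0.24), Axl (−0.27), Tgfbr1 (−0.28), Ftl1 (−0.33), Lpcat2 (−0.37), Rplp1 (−0.39), Golm1 (−0.41), Rpl10a (−0.49), Cx3cr1 (−0.50), Ddx60 (−0.50), Ddx3x (−0.53), Syk (−0.62), Rpl13a (−0.63), Hk2 (−0.63), Eif2s3x (−0.65), Lpl (−0.74), Runx1 (−0.77), Tmem119 (−0.88), Sall1 (−0.98), and P2ry12 (−1.04). With the Y-linked covariate the sign turned for Ttr (−5.04), Snap25 (0.078) and Ddx3y (0.89), and under limma for Snap25 (0.031). With single libraries left out, Snap25 ranged from −0.72 to 0.70. With 3 and 4 pooled libraries, genes of low abundance and genes that differ between WT libraries had the least power.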

Other observations

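The 180 genes called higher on any of the 47 lists were 23.3% of the 774 list genes tested, and a further 320 called higher were on no list (1.78% of 17953). The 9 with the lowest adjusted p among the latter, chosen after their values were seen, include genes of macrophages and of leukocyte membranes. Besides Plek and Slc15a3 these were the following. Mpeg1, a pore-forming protein of macrophages, was at 25.7, 31.6 and 38.9 CPM in WT and at 192, 196, 313 and 287 CPM in APP/PS1 (log2 fold change 2.94). Gpr65, a proton-sensing receptor, was at 0.675 to 1.31 CPM in WT and 9.49 to 14.04 CPM in APP/PS1 (3.52). Tbxas1, the thromboxane synthase, was at 6.54 to 9.74 CPM in WT and 29.3 to 44.5 CPM in APP/PS1 (2.07). Cd180, a Toll-like receptor homologue, had a log2 fold change of 2.22, the activation marker Cd83 one of 2.17, the tetraspanin Cd53 one of 1.64 and Arhgap24, a GTPase activator, one of 1.53. All 7 stayed called in edgeR when any single library was left out.

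Beside 2.67% of all genes called higher, 10 of 96 small nucleolar RNAs identified by symbol were called higher and 0 lower (median log2 fold change 0.46). Of 67 histone genes, 8 were called higher and 0 lower (median 0.84). These families were chosen after the values were seen, and their host genes and near-identical copies can share reads.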
